A study of Mus musculus with 21 samples.

Results

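Residual effects of a single exhaustive bout of treadmill running, and the return of muscle gene expression towards the resting state, were examined by comparing quadriceps muscle of untrained mice 72 h after the bout to quadriceps muscle of sedentary mice. The comparison rested on 6 of the 21 bulk RNA-seq libraries of the study, 3 of each group, assigned to groups by their labels. It was chosen with earlier results of these data known. Both groups were C57/Bl6 wildtype male mice of 22 to 26 weeks of age that had not been trained. Sedentary mice performed no exercise, whereas untrained mice ran to exhaustion on an inclined treadmill, to which they had been acclimatized, and were sacrificed 72 h later. The study describes the bout as the last of its performance tests, so earlier treadmill running by these mice cannot be told apart from it. Untrained muscle sampled directly and 6 h after the bout, and muscle of mice trained for 12 weeks by voluntary wheel running and sacrificed 72 h after the same kind of bout, were used for reference. The labels number the libraries of a group without saying that each came from a separate animal, so p-values describe the spread between these libraries. Whole muscle was homogenized, and the RNA therefore came from myofibers together with all mononuclear cells of the tissue.

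A bout of unaccustomed running first induces immediate early transcription factors and heat shock proteins, which respond to calcium, metabolic and mechanical stress within the fiber. Over the following days, tissue macrophages clear debris and signal to fibro-adipogenic progenitors, the main producers of collagen in muscle, and these cells remodel the extracellular matrix around the fibers. Late samples after a bout can thus carry both the end of the fiber-intrinsic response and the activity of resident or recruited mononuclear cells.

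Expression was given as TPM, a transcript abundance corrected for length and expressed relative to a fixed sum. TPM keep no read numbers, so depth was unknown and no counting error could be given. In the 6 libraries, transcripts of the mitochondrial genome took 42.2 to 46.9% of all TPM, and Pearson correlations across tested genes on the log2 scale were 0.913 to 0.932 within the groups and 0.911 to 0.931 between them. The median SD between libraries of a group was 0.127 log2 units in sedentary and 0.0964 in untrained muscle at 72 h. The columns of replicate 1 at 0 h in untrained and in trained muscle held identical values and were left out, which leaves 2 libraries at 0 h in untrained muscle.

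Of 53738 genes in the table, 11787 reached a mean of 1 TPM across these 6 libraries and were tested with limma on log2(TPM + 0.5). A gene was called at a Benjamini-Hochberg adjusted p below 0.05 together with a change of at least 1.5-fold. On this scale the fold change of genes with low TPM is understated. A single gene was higher at 72 h compared to sedentary, the macrophage lysosomal protein gene Cd68, which is 0.00848% of the genes tested, and 0 genes (0.0%) were lower. The next smallest adjusted p from limma was 0.10. At an unadjusted p below 0.05, 551 genes (4.67%) were higher and 190 (1.61%) lower. This excess of higher genes depended on the scaling of the libraries, since median-of-ratios scaling gave 329 higher and 492 lower genes, quantile normalization gave 552 and 405, and TPM rescaled without the mitochondrial genome and the 10 most abundant genes gave 566 and 349.

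For 8960 genes (76.0%), the 95% confidence interval of the fold change lay entirely within 1.5-fold in either direction. Among protein-coding genes this was the case for 8059 of 9739 (82.7%), and among small non-coding RNA genes for 23 of 667 (3.45%). The median standard error was 0.111 log2 units for protein-coding and 1.11 for small non-coding genes, so for most of the latter a difference of 1.5-fold was not resolved. For the other 2827 genes the interval reached past 1.5-fold.

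The 3 libraries at 72 h were all above the 3 sedentary libraries for 1067 genes (9.05%) and all below them for 377 (3.2%), which became 751 and 1063 with median-of-ratios scaling. A change of at least 1.5-fold was also present in 61 genes that were higher (0.518%) and 57 that were lower (0.484%). Of these 118 genes, 66 were protein-coding and 34 were small non-coding RNA genes.

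**Figure D1:**
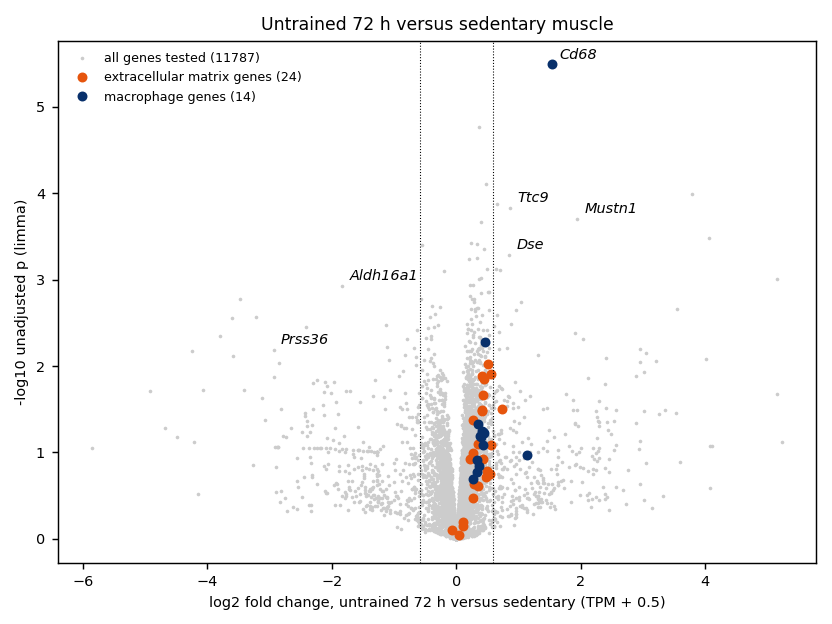
Log2 fold change at 72 h compared to sedentary on the x axis against −log10 of the unadjusted limma p on the y axis, 1 point per gene, with 14 macrophage and 24 extracellular matrix genes in color and dotted lines at 1.5-fold. Cd68 stands alone at the top, and nearly all matrix and macrophage genes lie on the right between 0 and the 1.5-fold line.

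Cd68 encodes a glycoprotein of lysosomes and endosomes that is used as a marker of macrophages. It lies on the minus strand at chr11:69555037-69557067 (GRCm39) and measured 1.04, 1.60 and 1.22 TPM in sedentary muscle. At 72 h, it measured 5.34, 5.30 and 3.49 TPM, so the lowest library was more than 2-fold above the highest sedentary one. This amounted to 1.53 ± 0.20 (standard error) on the log2 scale, with an adjusted p of 0.0381 in limma after Benjamini-Hochberg correction. At 6 h the libraries had 4.36, 6.82 and 4.01 TPM, and the difference between 72 h and 6 h was −0.08 log2 units with a 95% interval of −0.52 to 0.36. The 2 libraries at 0 h had 2.03 and 2.41 TPM. The level of Cd68 at 72 h was thus close to that at 6 h, while trained muscle at 72 h had 2.01, 1.49 and 1.57 TPM. The increase kept its size when any library was left out, with log2 values of 1.43 to 1.72, but the adjusted p from limma rose to 0.167 without untrained 72 h replicate 2, and it also passed 0.05 without untrained 72 h replicate 1 and without sedentary replicates 1 or 3 (0.109 to 0.128). It was 0.144 when the other groups were kept out of the model.

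An unstranded library kit was used, and the annotation places the long non-coding RNA gene Gm73992 across the whole of Cd68 on the opposite strand, so reads of both cannot be told apart. The 250 bases upstream of the transcription start of Cd68 and of Mustn1, the protein-coding gene named here with the largest increase, are given to show where the letters bound by AP-1, the dimer of Fos and Jun family members, occur. The sequences are from RefSeq on GRCm38.p6, an earlier build than that of the expression table, at chr11:69666171-69666420 on the minus strand and chr14:30879007-30879256 on the plus strand, written 5′ to 3′ along the gene. Capitals mark TGAGTCA, searched together with TGACTCA, its reverse complement.
Cd68: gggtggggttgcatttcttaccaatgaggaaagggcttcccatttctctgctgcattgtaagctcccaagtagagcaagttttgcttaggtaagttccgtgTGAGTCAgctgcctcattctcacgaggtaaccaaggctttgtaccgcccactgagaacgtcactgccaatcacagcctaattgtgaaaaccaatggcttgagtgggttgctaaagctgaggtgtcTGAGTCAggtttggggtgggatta
Mustn1: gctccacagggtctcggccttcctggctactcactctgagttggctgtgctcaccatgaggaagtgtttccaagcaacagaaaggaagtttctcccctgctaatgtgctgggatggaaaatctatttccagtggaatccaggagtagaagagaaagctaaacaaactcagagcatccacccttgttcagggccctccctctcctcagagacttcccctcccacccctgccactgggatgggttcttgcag
The Cd68 window held these letters at 2 places, beginning 149 and 24 bases before the start, and the Mustn1 window at 0. Among 32851 promoter windows of this length, 4.46% held them at least once. Such a match describes the sequence only.

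**Figure D2:**
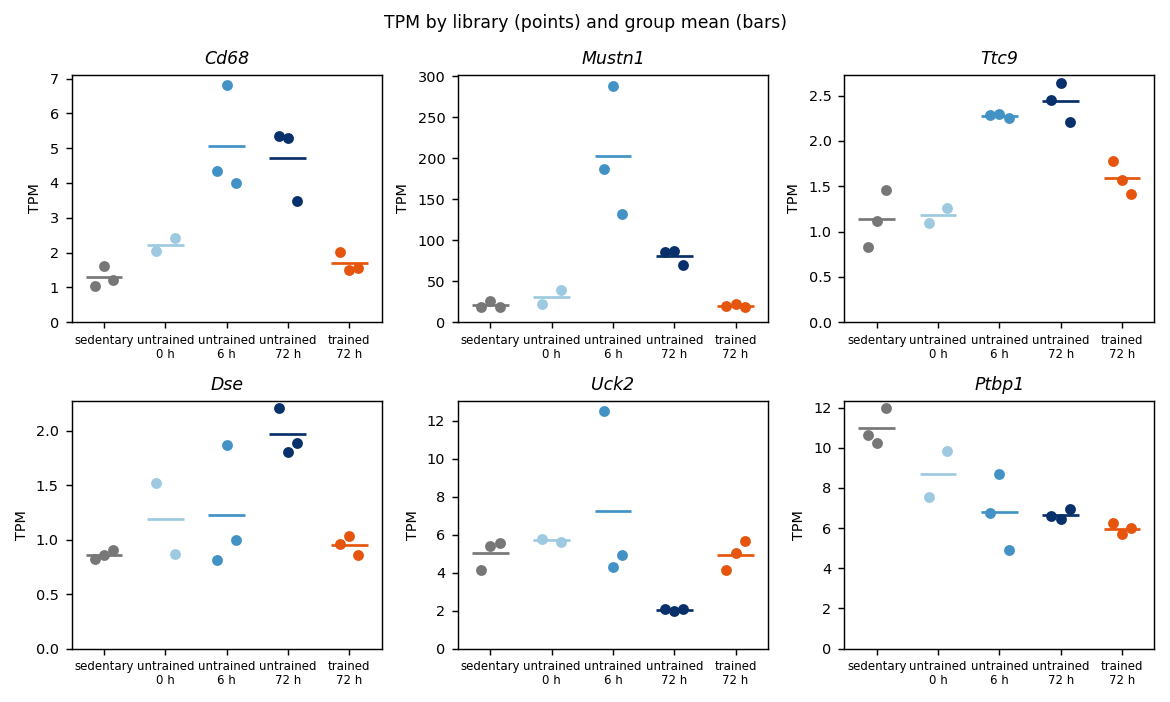
TPM of 6 genes in each library (points) with the group mean (bars) for sedentary muscle, untrained muscle at the 3 times after the bout and trained muscle at 72 h. Cd68, Mustn1, Ttc9 and Dse are higher and Uck2 and Ptbp1 lower in all 3 libraries at 72 h than in the 3 sedentary libraries.

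Macrophage genes as a list were higher at 72 h by a small amount. Of 22 listed genes, 14 passed the filter on expression. All 14 had a log2 fold change above 0, with a median of 0.40 against 0.04 for all tested genes, and in 13 of them the 3 libraries at 72 h lay above all sedentary libraries, a pattern found in 9.05% of all tested genes. Among the 8 members under the filter, 4 showed the same separation, for which the share of all genes under the filter was not determined. Only Cd68 was called, and 3 of the 14 were higher at an unadjusted p below 0.05, compared to 4.67% of all tested genes. The number with separated libraries was 13 or 14 without any one of the 6 libraries and 12 or 13 under the other scalings. Without sedentary replicate 3, however, 29.1% of all genes were separated upwards.

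Lyz2, encoding the lysozyme of myeloid cells, had 20.6, 21.9 and 20.7 TPM in sedentary muscle and 30.6, 26.9 and 28.5 TPM at 72 h. The groups did not overlap, and the log2 fold change of 0.44 had a 95% interval of −0.02 to 0.89 (limma, adjusted p = 0.808). The 3 chains of the complement component C1q, which is made mainly by tissue macrophages, differed by nearly the same amount, with log2 fold changes of 0.36 for C1qa, 0.40 for C1qb and 0.41 for C1qc. C1qb had 5.47, 6.13 and 5.89 TPM in sedentary and 7.66, 7.59 and 8.22 TPM in untrained muscle at 72 h. Csf1r, the receptor for the growth factor that maintains macrophages, had 2.61, 2.77 and 2.87 TPM and 3.81, 3.53 and 3.60 TPM. It was called at 6 h compared to sedentary (log2 fold change 0.61, adjusted p = 0.0305 from limma) but not at 72 h (0.35, adjusted p = 0.791 from limma). The call at 6 h was lost without any single one of the 3 sedentary libraries or of untrained 6 h replicates 2 and 3, with adjusted p of 0.0516 to 0.0941 from limma, and the difference was 0.38 without replicate 2. Fcgr3, an Fc receptor of myeloid cells, had 1.43, 1.51 and 1.21 TPM and 1.95, 2.11 and 2.24 TPM. Adgre1, which encodes the macrophage antigen F4/80 and was under the filter, had 0.665, 0.784 and 0.725 TPM and 0.998, 1.28 and 1.14 TPM.

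Lgals3, encoding the lectin galectin-3 of activated macrophages, did not follow this pattern evenly. It had 1.37, 1.32 and 1.43 TPM in sedentary muscle and 13.2, 2.06 and 1.48 TPM at 72 h, so that replicate 1 alone gave the large mean. The summed TPM of the 22 macrophage genes was 60.2 to 66.4 in sedentary and 86.0 to 105 in untrained muscle at 72 h. It was 88.2 to 91.9 at 0 h, 53.7 to 114 at 6 h and 65.8 to 73.5 in trained muscle at 72 h. In bulk tissue, more cells of a type and more RNA per cell cannot be told apart. Markers of other leukocytes were low, with the 7 neutrophil genes summing to 2.15 to 3.17 TPM in sedentary and 2.5 to 3.12 TPM in untrained muscle, and the 8 lymphocyte genes to 0.863 to 1.12 and 1.37 to 1.54 TPM.

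Other cell types were described in the same way. Endothelial genes had a median log2 fold change of 0.01 over 10 genes, and in 8 of them the 95% interval lay within 1.5-fold. The 5 red blood cell genes had a median of 0.52. The hemoglobin gene Hba-a1 had 109, 146 and 118 TPM in sedentary muscle and 272, 141 and 160 TPM at 72 h, and the groups overlapped. Untrained 72 h replicate 1 was the highest, and the median of the list was 0.23 without it. Compared to 6 h, 3 of the 5 genes were called higher at 72 h, among them Hba-a1 (log2 fold change 0.82, adjusted p = 0.0183 from limma), against 1.23% of all genes. Hba-a1 was no longer called without untrained 72 h replicate 1, when the difference was 0.54, or without untrained 6 h replicate 3 (adjusted p = 0.0519 from limma). The 5 tested adipocyte genes had a median of 0.90, which rested on untrained 72 h replicate 2. Its Adipoq, encoding the adipocyte hormone adiponectin, measured 18.9 TPM, compared to 5.09 and 6.26 TPM in the other libraries at 72 h and 2.60, 4.27 and 5.4 TPM in sedentary muscle. The median was 0.23 without that library. The part of blood and fat in the values of other genes was not tested.

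Genes of the extracellular matrix were higher at 72 h to a similar extent as those of macrophages. Of 26 listed genes, 24 were tested, 23 of them had a log2 fold change above 0, and the median was 0.41. The libraries at 72 h were all above the sedentary libraries in 16 of the 24, compared to 9.05% of all tested genes, and in 17 of all 26. Of the 24, 9 were higher at an unadjusted p below 0.05, compared to 4.67% of all genes. No member was called against sedentary muscle by limma. The number of tested members with separated libraries was 16 to 18 without any one library and 15 under each of the other scalings. The share of all tested genes separated upwards reached 29.1% without sedentary replicate 3. It was 6.37% to 8.74% under the other scalings.

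Among the fibril-forming collagens, Col1a1 had 7.41, 9.33 and 7.87 TPM in sedentary muscle and 10.8, 11.4 and 14.7 TPM at 72 h, a log2 fold change of 0.55 with a 95% interval of −0.08 to 1.19. Col3a1 had 21.3, 44.1 and 23.3 TPM and 40.3, 45.7 and 37.7 TPM, and the groups overlapped through sedentary replicate 2. Col5a1, which regulates the width of collagen fibrils, had 3.06, 3.76 and 3.2 TPM and 4.72, 4.52 and 5.72 TPM. Chains of collagen VI, the microfibrillar collagen that lies next to the fiber membrane, differed little between libraries. Col6a1 had 9.5, 10.3 and 9.47 TPM in sedentary and 12.6, 13.6 and 14.2 TPM in untrained muscle at 72 h (log2 fold change 0.45 ± 0.16, standard error, and adjusted p = 0.735 in limma). Basement membrane collagens showed no such separation, with log2 fold changes of 0.11 for Col4a1, 0.10 for Col4a2 and −0.07 for Col15a1.

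The proteoglycan gene Bgn had 11.8, 17.9 and 14.6 TPM in sedentary muscle and 20.5, 23.1 and 21.2 TPM at 72 h, with a log2 fold change of 0.55. Postn, encoding the matricellular protein periostin, had 1.15, 2.04 and 1.4 TPM and 2.95, 3.43 and 2.25 TPM, and its log2 fold change of 0.74 was the largest of the list. The proteases Mmp2 and Mmp14, of which the latter activates the former at the cell surface, had log2 fold changes of 0.42 and 0.28. Mmp2 was very even at 72 h, with 15.4, 15.2 and 15.4 TPM compared to 10.3, 11.4 and 12.5 TPM in sedentary muscle. Of the 9 genes of fibro-adipogenic progenitors, all had a log2 fold change above 0 with a median of 0.26. Libraries were separated upwards in 3 of them, compared to 9.05% of all tested genes. Lum, encoding the keratan sulfate proteoglycan lumican, had 7.25, 7.84 and 7.25 TPM and 10.3, 12.0 and 10.6 TPM. The log2 fold change of 0.53 (95% interval 0.22 to 0.83) had an adjusted p of 0.592 in limma. Pdgfra, the receptor that defines these progenitors, differed by 0.15 log2 units, with overlapping libraries.

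Matrix genes were also compared with the intermediate time point. Between 72 h and 6 h, limma called 145 genes higher (1.23%) and 297 lower (2.52%) at 72 h, which became 306 and 334 when TPM were rescaled without the mitochondrial genome and the most abundant genes. Of the 24 matrix genes, 7 were called higher at 72 h and 0 lower. They were Col3a1 (log2 difference 1.4), Fbn1 (0.96), Col6a2 (0.74), Col6a1 (0.72), Mmp14 (0.63), Mmp2 (0.60) and Col5a1 (0.59), with adjusted p from limma between 0.00557 and 0.0476. Fbn1, encoding the microfibril protein fibrillin-1, had 1.54, 3.13 and 3.07 TPM at 6 h and 5.05, 5.47 and 5.32 TPM at 72 h, with sedentary muscle in between at 3.79, 4.28 and 4.03 TPM. Lum was also called, with 5.21, 6.73 and 4.54 TPM at 6 h and a log2 difference of 0.95 (adjusted p = 0.000873 from limma). Untrained 6 h replicate 1 had the lowest of the 3 values at 6 h in 22 of the 24 matrix genes and in 13 of the 14 macrophage genes. Without that library Fbn1 was the only matrix gene called higher at 72 h (0.68, adjusted p = 0.00556 from limma), and 3 matrix genes were called lower, namely Lox, Serpinh1 and Thbs1. There were 10 higher matrix genes without replicate 2 and 4 without replicate 3, with 0 lower in each case. Over all genes, 104 were called higher and 388 lower without replicate 1. Fbn1 and Lum were called without any one of the libraries of either time. Both comparisons use the untrained 72 h libraries and are not independent.

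Directly after the bout, matrix genes were already above sedentary muscle as a sum. The 26 genes summed to 233 to 315 TPM in sedentary muscle, 336 and 377 TPM at 0 h, 214 to 388 TPM at 6 h and 330 to 358 TPM at 72 h, so the libraries at 0 h and 72 h overlapped. By member, the median log2 fold change against sedentary was 0.23 at 0 h and 0.41 at 72 h. The median difference between 72 h and 0 h was 0.20 over the 24 tested genes. Limma called 3 of the 24 higher at 0 h compared to sedentary, against 2.11% of all genes. These were Ccn2 and Thbs1, which encode matricellular proteins, and Serpinh1, the collagen chaperone of the endoplasmic reticulum. The same 3 were called lower at 72 h than at 0 h, with 0 called higher, against 1.65% and 0.458% of all genes. Their log2 differences between 72 h and 0 h were −1.34, −2.54 and −1.28.

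**Figure D3:**
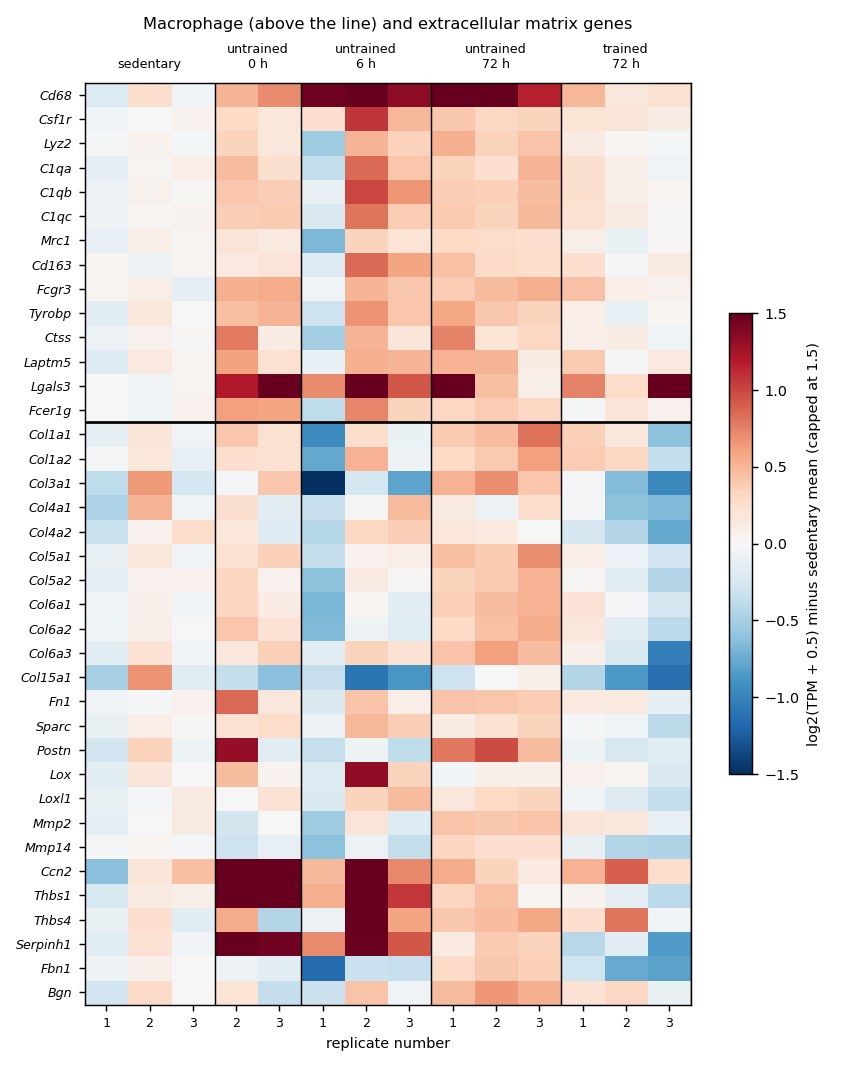
Log2(TPM + 0.5) of each library minus the sedentary mean (color, capped at 1.5) for 14 macrophage genes above the line and 24 extracellular matrix genes below it, with libraries in columns by group and replicate number. The 3 libraries at 72 h in untrained muscle are red for most genes of both lists, whereas the libraries at 6 h differ among themselves.

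In trained muscle at 72 h, limma called 11 genes higher (0.0933%) and 31 lower (0.263%) than in untrained muscle at 72 h. Among matrix genes, Fbn1 was lower in trained muscle by 0.97 log2 units (adjusted p = 0.0315 from limma), with 3.18, 2.19 and 2.09 TPM. Mmp14 was lower by 0.61 (adjusted p = 0.0383 from limma), with 3.47, 2.67 and 2.60 TPM. Neither was called when any one of the untrained 72 h libraries was left out, with adjusted p of 0.0705 to 0.135 from limma. Of the macrophage genes, Cd68 alone passed the test (−1.24, adjusted p = 0.0168 from limma). Its adjusted p from limma was 0.05827 and 0.09195 without untrained 72 h replicates 1 and 2.

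Mustn1, which encodes a small nuclear protein of the musculoskeletal system, had the largest difference among the genes of sarcomere stress and membrane repair. It lies on the plus strand at chr14:30601157-30603567 (GRCm39) and measured 18.0, 25.6 and 18.6 TPM in sedentary and 85.2, 87.1 and 69.6 TPM in untrained muscle at 72 h. Means were 20.7 ± 4.19 and 80.7 ± 9.60 TPM (SD, n = 3), a ratio of 3.89, and the groups did not overlap. The log2 fold change of 1.95 (standard error 0.39) had an adjusted p of 0.316 from limma with all groups in the model, which share one estimate of the spread, and the libraries at 6 h ranged from 132 to 289 TPM. With the other groups kept out it was called (adjusted p = 0.0357 from limma). Trained muscle at 72 h had 20.3, 22.5 and 18.4 TPM, at the level of sedentary muscle, and was lower than untrained muscle at 72 h by 1.95 log2 units (adjusted p = 0.0364 from limma). Without single untrained 72 h libraries the adjusted p from limma was 0.09035 to 0.1485.

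The other genes of this list returned further. Limma called 9 of the 16 genes higher at 6 h compared to sedentary, where 3.06% of all genes were called higher and 0.925% lower, and 0 at 72 h. Ankrd1, a titin-binding stress response protein of the fiber, had 2.18, 2.68 and 1.63 TPM in sedentary muscle, 96.4, 175 and 68.8 TPM at 6 h and 3.75, 5.62 and 3.65 TPM at 72 h. All libraries at 72 h were still above the sedentary ones, with a log2 fold change of 0.86 and a wide 95% interval of −0.27 to 1.99. Csrp3, encoding the muscle LIM protein of the Z-disc, had 48.3, 77.1 and 57.4 TPM, 538, 436 and 434 TPM and 99.1, 119 and 87.4 TPM at the same times. It had 15.3, 9.40 and 15.1 TPM in trained muscle at 72 h, lower than in untrained muscle by 2.91 log2 units (adjusted p = 0.0172 from limma, and 0.0573 to 0.0946 without single untrained 72 h libraries). Flnc, encoding the actin crosslinker filamin C, was just above sedentary muscle in all libraries at 72 h, with 45.0, 51.7 and 44.1 TPM against 42.7, 40.4 and 43.1 TPM, whereas it had 232 to 302 TPM at 6 h. Xirp2, an actin-binding protein of the Z-disc region, was more uniform between libraries, with 202, 211 and 200 TPM in sedentary and 258, 266 and 246 TPM in untrained muscle at 72 h (log2 fold change 0.33 ± 0.09, standard error, and adjusted p = 0.592 in limma). For Ankrd2, a paralog of Ankrd1 found mainly in slow fibers, the groups overlapped with 50.1, 66.2 and 47.1 TPM and 44.2, 54.4 and 45.7 TPM.

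Immediate early genes had no called member at 72 h. Of 26 listed genes, 18 were tested. Limma called all 18 higher at 0 h, where 2.11% of all genes were called higher and 0.501% lower compared to sedentary. It called 9 higher at 6 h, where 3.06% of all genes were called higher, and 0 at 72 h. The median log2 fold change at 72 h was 0.23. Libraries were separated upwards in 3 genes, Atf3, Klf4 and Ier5, compared to 9.05% of all tested genes. In 8 the 95% interval lay within 1.5-fold, compared to 76.0% of all tested genes. Without sedentary replicate 3 the libraries were separated upwards in 14 of the 18 genes, against 29.1% of all tested genes. Without untrained 72 h replicate 2 this was so in 6, against 12.4% of all tested genes. The median ranged from 0.09 to 0.43 without any one library. Fos had 72.5 and 84.1 TPM at 0 h and 2.21, 0.728 and 1.43 TPM at 72 h. Sedentary muscle itself varied, with 0.320, 0.588 and 3.44 TPM. The same held for Nr4a2, an orphan nuclear receptor gene, with 0.0857, 0.147 and 1.98 TPM in sedentary and 1.89, 1.72 and 1.31 TPM in untrained muscle at 72 h. In both genes sedentary replicate 3 was the highest of its group. Junb, at 26.8 and 38.0 TPM at 0 h, was at 3.42, 2.75 and 3.14 TPM at 72 h compared to 3.84, 3.33 and 3.55 TPM in sedentary muscle.

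Atf3, a repressor of stress-induced transcription, had 0.744, 0.948 and 0.829 TPM in sedentary muscle, 109, 149 and 68.9 TPM at 6 h and 2.30, 1.97 and 2.62 TPM at 72 h. The libraries at 72 h did not overlap with the sedentary ones, with a log2 fold change of 1.06, a 95% interval of −0.12 to 2.24 and an adjusted p of 0.823 from limma. With a sedentary mean of 0.841 TPM, Atf3 passed the filter only through its values at 72 h. Klf4, a zinc finger factor, had 1.58, 1.88 and 2.57 TPM and 3.53, 3.77 and 3.13 TPM, compared to 23.6 and 22.6 TPM at 0 h.

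Heat shock genes had more called members at 6 h than directly after the bout. Of 14 tested genes, 9 were called higher at 0 h and 11 at 6 h compared to sedentary, against 2.11% and 3.06% of all genes. The group at 0 h held 2 libraries and that at 6 h held 3, so these counts are not strictly comparable. At 72 h, 0 were called, and the median log2 fold change was 0.19. Compared to 6 h, 10 of the 14 were called lower at 72 h, against 2.52% of all genes. Dnajb1, a co-chaperone of Hsp70, went from 63.5 and 60.4 TPM at 0 h to 1.28, 1.21 and 1.39 TPM at 72 h, next to 0.753, 0.761 and 1.32 TPM in sedentary muscle. The inducible Hsp70 gene Hspa1b, not tested because of its low level in the 6 libraries, had 121 and 120 TPM at 0 h and 102, 181 and 124 TPM at 6 h. It had 0.724, 0.854 and 0.788 TPM at 72 h and 0.501, 0.608 and 0.659 TPM in sedentary muscle. The small heat shock protein gene Cryab, which protects desmin and titin, was still above sedentary muscle in all libraries with 516, 618 and 606 TPM against 401, 497 and 512 TPM, and so was Hsph1 with 20.9, 24.2 and 25.1 TPM against 18.5, 17.9 and 18.2 TPM. In 4 of the 14 genes the libraries were separated in this way, compared to 9.05% of all tested genes. In 5 the 95% interval lay within 1.5-fold, compared to 76.0% of all tested genes. Separated genes numbered 8 without untrained 72 h replicate 1, where 14.5% of all tested genes were separated upwards. They numbered 7 without sedentary replicate 3, where this share was 29.1%.

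**Figure D4:**
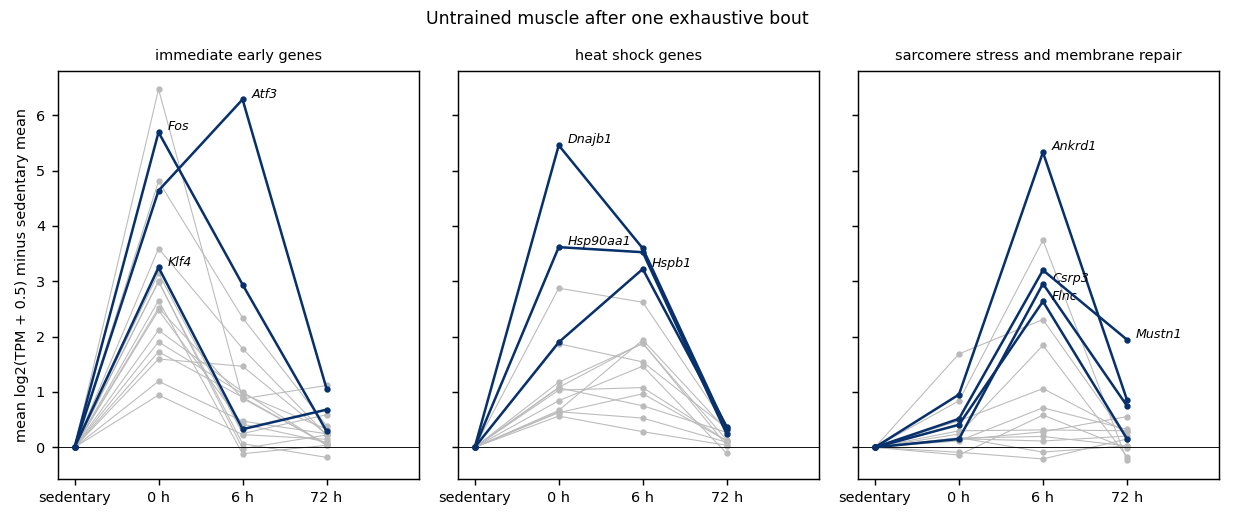
Mean log2(TPM + 0.5) minus the sedentary mean in untrained muscle against time after the bout (0, 6 and 72 h), 1 line per tested gene of 3 lists, with the genes named in the panels in blue. Lines reach up to 6.47 at 0 h and come back to within 1.12 of the sedentary mean at 72 h, except for Mustn1 at 1.95.

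Compared to 0 h, limma called 54 genes higher (0.458%) and 195 lower (1.65%) at 72 h, which became 150 and 217 with the rescaled TPM. All 18 immediate early genes and 8 of 14 heat shock genes were among the lower ones. Of the 6 genes with the largest increase at 6 h among those tested, Atf3 and Ankrd1 are given above. Xirp1, which binds actin at sites of fiber damage, had 209 to 330 TPM at 6 h and 14.2, 17.3 and 14.6 TPM at 72 h, within the sedentary range of 13.7 to 29.1 TPM. Otud1, a deubiquitinase gene, had 33.7 to 88.3 TPM at 6 h and 2.78, 2.98 and 2.01 TPM at 72 h compared to 1.41, 1.64 and 2.19 TPM in sedentary muscle. Gm20481, a non-coding gene that overlaps Hspa1a on the opposite strand, had 275 to 514 TPM at 6 h and 1.47, 3.34 and 3.57 TPM at 72 h. The microRNA gene Gm56142 was listed at 0 in all sedentary libraries and had 8.47, 0 and 4.32 TPM at 72 h.

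Of the 6 genes with the largest decrease at 6 h, 4 were microRNA genes and 1 a pseudogene, and 4 of these 5 were listed at 0 in all libraries at 6 h. Dmxl1, encoding a regulator of the vacuolar proton pump, had 7.31, 8.79 and 8.18 TPM in sedentary muscle, 1.59, 2.02 and 2.36 TPM at 6 h, and at 72 h 7.95, 7.54 and 2.35 TPM, so that replicate 3 was at the level of 6 h and the others at that of sedentary muscle.

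The protein-coding genes with the smallest p among those with separated libraries and at least 1.5-fold difference are given as a description, since these values chose them. Among those that were higher, Ttc9, encoding a tetratricopeptide repeat protein, had 0.827, 1.11 and 1.46 TPM in sedentary and 2.46, 2.64 and 2.21 TPM in untrained muscle at 72 h, next to 2.29, 2.30 and 2.25 TPM at 6 h. Dse, the epimerase that converts chondroitin to dermatan sulfate on proteoglycans such as those of the matrix list, had 0.823, 0.859 and 0.902 TPM and 2.20, 1.80 and 1.89 TPM. Htra3, a secreted serine protease, had 5.92, 7.55 and 6.38 TPM and 10.1, 10.4 and 12.5 TPM. Fcor, a corepressor of Foxo1, had 0.351, 0.460 and 0.788 TPM and 1.56, 1.89 and 1.33 TPM. Lss, the lanosterol synthase of cholesterol synthesis, and Chka, the choline kinase that starts phosphatidylcholine synthesis, differed by 0.61 and 0.95 log2 units. Ppp1r10, Mroh1 and Prc1, the latter a microtubule bundler of dividing cells, differed by 0.65, 0.70 and 0.87 log2 units. The adjusted p from limma of these 9 genes was 0.290 to 0.651. Dse, Fcor, Chka and Lss had sedentary means of 0.861, 0.533, 0.718 and 0.751 TPM. They passed the filter on expression only through their values at 72 h, so the filter also favored their increase. Mroh1, Ppp1r10 and Prc1 overlap protein-coding genes on the opposite strand.

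Among those that were lower, Uck2, a kinase of the pyrimidine salvage pathway, stood below all other groups. It had 4.14, 5.38 and 5.59 TPM in sedentary and 2.08, 1.97 and 2.08 TPM in untrained muscle at 72 h, and all 13 other libraries of the study lay above the latter. Ptbp1, a repressor of alternative exons, had 10.6, 10.3 and 12.0 TPM and 6.6, 6.45 and 6.97 TPM. Smyd3, a lysine methyltransferase, had 1.29, 2.02 and 2.00 TPM and 0.706, 0.957 and 1.16 TPM. Fgfbp1, which releases fibroblast growth factors from the matrix, had 2.93, 3.26 and 2.45 TPM and 1.91, 1.92 and 1.25 TPM. Some of the lower genes varied widely among libraries of a group. Aldh16a1, of the aldehyde dehydrogenase family, had 21.9, 7.32 and 4.20 TPM in sedentary muscle and 2.34, 2.00 and 2.09 TPM at 72 h. Prss36, a serine protease gene, had 28.0, 23.4 and 44.1 TPM and 4.25, 4.07 and 2.65 TPM. Of the 13 other libraries, 4 were on the sedentary side and 8 within the range of the 72 h libraries, and untrained muscle at 6 h held both, with 3.22, 34.4 and 42.4 TPM. Smim27, Atxn1l and Car11 had log2 fold changes of −1.14, −0.83 and −1.09. The adjusted p of these 9 genes from limma was 0.533 to 0.726. Smyd3, with a mean of 0.941 TPM at 72 h, passed the filter on expression only through its sedentary values. Aldh16a1, Smim27, Ptbp1 and Atxn1l also overlap protein-coding genes on the opposite strand.

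Genes of fuel selection and transcriptional adaptation to exercise had no called member at 72 h, and the median log2 fold change of 20 tested genes was −0.11. Ppargc1a, the coactivator that drives mitochondrial biogenesis, had 22.3, 33.1 and 25.9 TPM at 6 h. It was back at 3.63, 4.53 and 4.0 TPM at 72 h compared to 3.04, 4.30 and 4.34 TPM in sedentary muscle, with a 95% interval of −0.36 to 0.48 log2 units. Pdk4, the kinase that shuts off pyruvate oxidation, and Ucp3, which follows fatty acid supply, varied within groups. Pdk4 had 181, 170 and 56.6 TPM in sedentary and 129, 51.5 and 32.3 TPM in untrained muscle at 72 h. Ucp3 had 38.5, 36.2 and 14.5 TPM and 29.5, 14.2 and 11.5 TPM. Sedentary replicate 3 was low for both, as were untrained 72 h replicates 2 and 3, and the groups overlapped. Mice had free access to food.

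Core clock genes had no called member at 72 h, with a median of −0.08 over 17 tested genes and 11 intervals within 1.5-fold, compared to 76.0% of all tested genes. The libraries at 72 h were all below the sedentary ones in 2 of the 17, compared to 3.2% of all tested genes. Ciart, a repressor of the clock, was among them, with 2.81, 1.5 and 1.59 TPM in sedentary and 1.28, 1.13 and 0.720 TPM in untrained muscle at 72 h. The clock activator Arntl had 6.62, 9.20 and 9.02 TPM and 6.41, 7.07 and 8.59 TPM, and its target Per1 had 2.11, 1.19 and 2.73 TPM and 2.98, 1.61 and 1.65 TPM. Of the 13 genes of atrophy, the ubiquitin ligase gene Fbxo32 had 39.6, 44.1 and 42.2 TPM and 35.3, 30.8 and 27.8 TPM, and the stress gene Gadd45a had 9.0, 9.99 and 11 TPM and 7.76, 6.83 and 7.45 TPM. Both had separated libraries and log2 fold changes of −0.42 (adjusted p = 0.735 and 0.726 from limma), while the median of the list was −0.05. In the whole list, 3 genes were separated downwards and 1 upwards, compared to 3.2% and 9.05% of all tested genes. Gadd45a had been called higher at 6 h (0.76, adjusted p = 0.00309 from limma).

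Slow fiber genes had a median of −0.53 over 9 tested genes, with no called member. In 2 of the 9, Myl2 among them, the libraries at 72 h were all below the sedentary ones, compared to 3.2% of all tested genes. Against the same sedentary libraries, the median was −1.03 at 0 h and −1.07 at 6 h in untrained muscle. It was −0.67 in trained muscle at 72 h, so the lower level was not particular to untrained muscle at 72 h. Myl2, the regulatory light chain of slow fibers, had 187, 191 and 327 TPM in sedentary and 132, 144 and 106 TPM in untrained muscle at 72 h. Myh7, the slow myosin heavy chain, had 33.7, 33.2 and 89.4 TPM and 37.5, 42.3 and 16.1 TPM, and the groups overlapped. Sedentary replicate 3 was the highest of the 6 libraries for both genes and untrained 72 h replicate 3 the lowest. The median of the list ranged from −0.85 to −0.22 without any one library. Fast fiber genes had a median of −0.02, with 11 of 13 intervals within 1.5-fold.

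The machinery of energy supply and protein turnover was measured with narrow intervals. The interval lay within 1.5-fold in 38 of 39 nuclear genes of oxidative phosphorylation, in all 13 protein-coding genes of the mitochondrial genome, in 17 of 18 genes of fatty acid oxidation, in 21 of 23 genes of glycogen and glucose breakdown, in 66 of 72 ribosomal protein genes and in 33 of 37 proteasome genes, compared to 76.0% of all tested genes. Their medians lay between −0.02 and 0.09 log2 units. The interval also lay within 1.5-fold in 15 of 17 lysosome genes, 12 of 15 autophagy genes, 8 of 10 genes of the unfolded protein response and 7 of 8 angiogenesis genes. Their medians were 0.04, −0.07, 0.04 and 0.03. Antioxidant and metallothionein genes were less well resolved, with 8 of 14 intervals within 1.5-fold, a smaller share than among all tested genes, and a median of −0.05.

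Genes of interferon response and antigen presentation had a median of 0.15 over 15 tested genes, with 2 members separated upwards, compared to 9.05% of all tested genes. One of them was Psmb8, a catalytic subunit of the immunoproteasome, with 2.27, 2.32 and 3.01 TPM in sedentary and 3.09, 4.01 and 3.30 TPM in untrained muscle at 72 h (log2 fold change 0.39, adjusted p = 0.651 from limma). The 6 tested genes of inflammation and chemokines had a median of 0.05, the 10 of secreted muscle factors −0.01, the 7 of regeneration 0.08, the 3 of satellite cells 0.09, the 3 of Schwann cells 0.01, and the 2 of the cell cycle −0.11. Myofiber genes had a median of 0.11 over 8 genes.

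**Figure D5:**
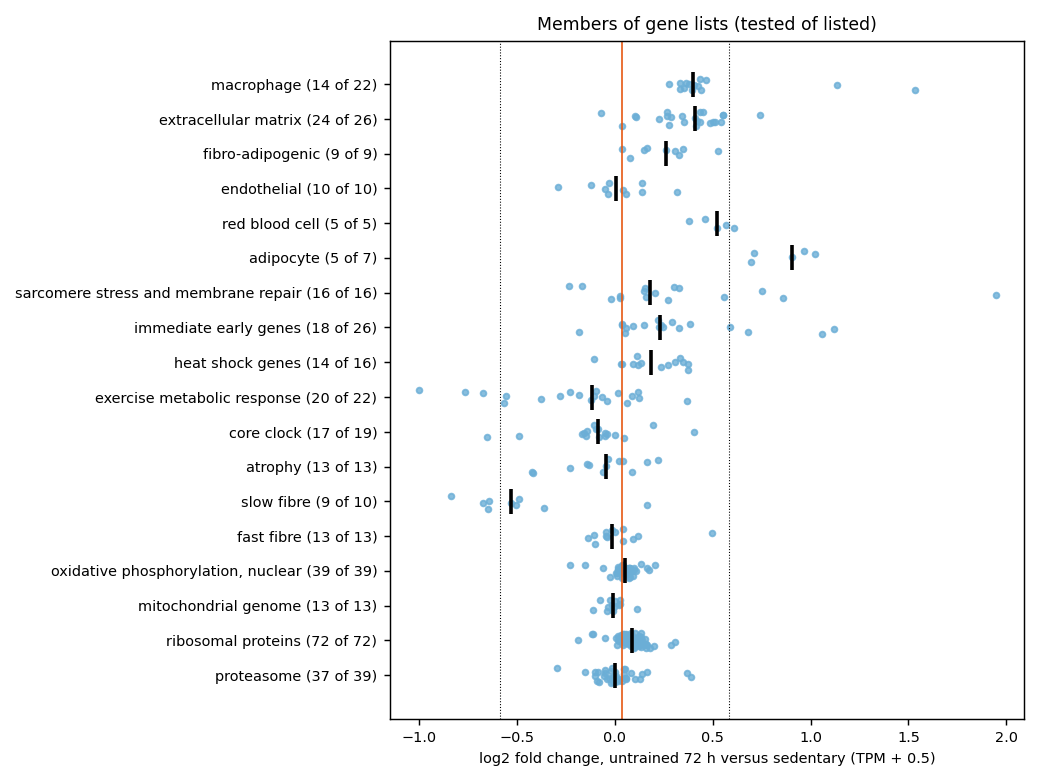
Log2 fold change at 72 h compared to sedentary for each tested member (points) and the median (black bar) of 18 gene lists, with the number tested of those listed, the median of all tested genes as an orange line and 1.5-fold as dotted lines. Macrophage and extracellular matrix genes lie to the right of the orange line with medians of 0.40 and 0.41, slow fiber genes to the left with a median of −0.53, and lists of housekeeping functions close to it.

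Small non-coding RNA genes made up 34 of the 118 genes with separated libraries and at least 1.5-fold difference, and 14 of the 118 were listed at 0 in all 3 libraries of a group. The snoRNA gene Snord100, named after its values were seen, was listed at 0 in the sedentary libraries and had 5.26, 7.47 and 6.62 TPM at 72 h. When the model held no other groups, limma called 11 genes, Mustn1 and 10 small non-coding RNA genes, and each of these 10 was listed at 0 in all libraries of 1 group. The kit selects polyadenylated RNA and short genes receive few fragments, so a value at 0 is not evidence of absence.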

How the data were processed

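RNA of mouse quadriceps was extracted with TRI Reagent and RNeasy columns, and libraries were made with the unstranded TruSeq RNA v2 kit and sequenced paired-end. The authors deposited 1 table of TPM values for all libraries, which per the submitters' processing notes rests on STAR 2.7.9 and Salmon 1.5.0 with genome build GRCm39. TPM keep no read numbers, so the depth per sample is unknown, no count test was possible and precision rests on the 3 libraries per group.

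Groups came from the sample labels. Genes averaging 1 TPM or more in the 6 libraries compared were taken as log2(TPM + 0.5) and fitted with limma 3.58.1 in R 4.3.3 (variance trend) to 19 libraries of 7 groups, with 12 residual degrees of freedom. The 0 h library found in both the untrained and the trained column was left out of both. Calls needed a Benjamini-Hochberg adjusted p below 0.05 and a 1.5-fold change. The fit was tested on simulated data. Figures and summaries were made with Python 3.11.15, pandas 2.3.3 and matplotlib 3.10.9, gene positions are from GENCODE (98.6% of tested genes matched), and promoters from RefSeq.

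Named genes were all called genes, the 10 not called genes per direction with the smallest p among those with separated libraries, at least 1.5-fold and an established symbol, members of 35 gene lists, and the 6 genes per direction with the largest called change at 6 h. Some of these genes are not reported here. The comparison, its members and the lists were chosen with earlier results of these data known. Alternatives covered pseudocount, filter, scaling, variance model, the samples fitted and leaving out single libraries.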

Additional observations from a re-analysis of the deposited data

Results flagged for a closer look

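Cd68 and Mustn1 were lower in the trained than in the untrained libraries at 72 h by the test of the difference itself. Cd68 was lower in trained muscle by 1.24 log2 units (−1.237, adjusted p = 0.0168 from limma), with 2.01, 1.49 and 1.57 TPM against 5.34, 5.30 and 3.49 TPM. Over the alternatives the difference was −1.42 to −1.07, and the adjusted p from limma was below 0.05 in 23 of 26 of them. It was 0.05827 and 0.09195 without untrained 72 h replicates 1 and 2. Mustn1 was lower by 1.95 (−1.954, adjusted p = 0.0364 from limma), with −2.06 to −1.85 over the alternatives and 19 of 27 below 0.05. The adjusted p from limma was 0.09035, 0.1485 and 0.09105 without untrained 72 h replicates 1, 2 and 3. Alternatives that only left out libraries of other groups could not change either difference. Both genes were picked for their high values in the untrained libraries at 72 h, which this contrast shares. Its p-values are therefore not independent of that choice and do not settle whether training changed the level.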

How the results depend on the processing

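With 3 libraries per group and unknown depth, small differences of single genes could not be resolved. The comparison of 72 h to sedentary gave 1 call, Cd68. There were 0 calls with a mean of at least 5 TPM, a filter that Cd68 did not pass. The replicate block, a test against a fold of 1.2 and the fit without the 0 h groups also gave 0. With only both groups in the model there were 11. Leaving out single libraries gave 0 to 4 (0 without sedentary replicate 3 and 4 without sedentary replicate 2). The labels do not say whether the replicate numbers pair the samples. Deviations of same-numbered sedentary and untrained 72 h libraries correlated at 0.0291, 0.0304 and −0.00993. Those of differently numbered libraries correlated at −0.066 to 0.0442, so these values cannot decide whether the numbers stand for pairs. The paired fit with the replicate block gave 432 calls between 72 h and 6 h and 211 between 72 h and 0 h. Of 442 calls between 72 h and 6 h, the counts became 247 with at least 5 TPM, 202 with only both groups, 191 against a fold of 1.2, 1046 without a fold threshold and 365 to 492 when leaving out single libraries. Of 249 calls between 72 h and 0 h, they became 98 with at least 5 TPM, 381 without a filter, 124 against a fold of 1.2 and 150 to 207 when leaving out single libraries. Genes with separated libraries and at least 1.5-fold numbered 118, and 42 with at least 5 TPM, 66 among protein-coding nuclear genes, 185 with rescaled TPM and 225 to 277 when leaving out single libraries, where fewer libraries separate more easily. Genes with the interval within 1.5-fold numbered 8960, and 4811 with at least 5 TPM, 27246 without a filter and 8304 to 8561 when leaving out single libraries. Settings that select genes by level or class also changed how many genes were tested. The other 78 such values stayed within 1.5 times. Cd68 kept its direction in all 19 alternatives and lost its call in 7 of them, among them the replicate block (adjusted p = 0.0814 from limma) and the fit without the 0 h groups (0.0894). Mustn1 gained a call in 1. None of the 21 genes followed in this way, Cd68 and the not called genes chosen by p, reversed. Other named genes were not put through all of these alternatives. Medians of gene lists were less stable, and 40 of 351 values under the alternatives changed sign, in 15 of 32 lists. The lysosome median, for example, went from 0.04 to −0.01 with median-of-ratios scaling. The direction of such small medians was therefore not resolved. Other causes of these shifts were not tested.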
